A study of Mus musculus with 8 samples.

Results

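Chemokines and their receptors were examined in tumor endothelial cells (TECs) of mouse lung tumors. Gene symbols made of Ccl, Cxcl, Xcl or Cx3cl (ligands) or Ccr, Cxcr, Xcr or Cx3cr (receptors), a number and at most 1 letter were taken, which gave 57 of the 33641 symbols in the expression files, 39 ligands and 18 receptors. Of these, 36 (30 ligands and 6 receptors) reached 1 TPM, a share of a library's transcripts scaled by gene length and library total, in at least 4 of the 8 libraries and were tested among 14964 such genes. The comparison asked whether their transcripts differ between TECs that lost 1 Foxf1 allele and control TECs, and which of them follow Ptprc, the gene for the pan-leukocyte surface protein CD45.

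Chemokines are small secreted proteins that bind G protein-coupled receptors and direct the migration of cells along a gradient. They are grouped as CC, CXC, C or CX3C by the spacing of their first cysteines. In vessels they are held on the glycosaminoglycans of the endothelial surface, where they stop rolling leukocytes and prompt them to cross the wall. Most of their receptors are carried by leukocytes, while endothelial cells make some of the ligands and several atypical receptors that take ligands up without classical signaling.

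RNA was sequenced from CD45-CD31+ cells that had been sorted by FACS from microdissected orthotopic tumors of Lewis lung carcinoma (LLC), a mouse lung carcinoma line placed in the left lung, 21 days after injection. The 4 control libraries are called C1 to C4 and the 4 endFoxf1+/- libraries H1 to H4. The endFoxf1+/- mice were Pdgfb-iCreER/Foxf1 fl/+, in which tamoxifen activates a Cre driven by the Pdgfb promoter, and the floxed exon 1 of a single Foxf1 allele is lost from endothelium. The labels call the other group only control. The study names single transgenic Foxf1 fl/+ or Pdgfb-Cre littermates, given tamoxifen, as controls in its results and C57Bl/6 wild-type mice in the methods of the tumor model, so the control genotype of each library was not known here. Each library was labelled as a separate sample, and p-values measure the spread between these libraries.

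The libraries were not alike in their cells. Foxf1 stood at 213, 285, 296 and 331 TPM in C1 to C4 and at 177, 203, 14.04 and 105 TPM in H1 to H4, so that every endFoxf1+/- library was below all control libraries. Pecam1, which encodes CD31 and was used for sorting, was 1061 to 1505 TPM in the control libraries, 1363 and 1398 TPM in H1 and H2, 914 TPM in H4 and 77.5 TPM in H3. All 20 endothelial markers examined were lowest in H3, and 16 of them were below all control libraries in H4. Ptprc, whose product was used to exclude leukocytes, was 8.21, 6.42, 9.13 and 2.94 TPM in C1 to C4 and 16.5, 9.93, 91.2 and 6.61 TPM in H1 to H4, and 11 of 12 leukocyte markers were highest in H3. Per 1000 TPM of Pecam1, Foxf1 was 226 ± 47.0 TPM in control and 143 ± 28.3 TPM in endFoxf1+/- libraries (SD, n = 4 each), and library H3 (181 TPM) lay within the control range of 165 to 279 TPM. In bulk libraries fewer cells of a type and less RNA per cell cannot be told apart, and fold changes that H3 moved strongly are given below with and without it. The deposited TPM keep no read numbers, and sequencing depth is therefore unknown.

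No chemokine or receptor gene passed an adjusted p of 0.05 (limma, Benjamini-Hochberg over all tested genes; smallest adjusted p = 0.790), in a fit that called 0 of 14964 genes (0.0%). At an unadjusted p of 0.05, 7 of the 36 were past the threshold, against 5.59% of all tested genes: 5 were higher in endFoxf1+/- TECs, among them Ccl2, Ccl7, Ccr2 and Cxcr4, and Cx3cl1 and Cxcl5 were lower. The levels did not overlap between the groups for 3 genes that were higher, Ccl7 and Ccr2 among them (2.73% of all genes), and for 1 that was lower, Cxcl5 (2.31% of all genes), together 5.04% of all genes. Without H4 the number without overlap was 9 (9.29% of all genes), and without H3 and H4 it was 13 (24.5%). The median log2 fold change on the log2(TPM + 1) scale was 0.47 over the 30 ligands and 0.38 over the 6 receptors, while it was -0.17 over all tested genes. With all genes brought to a common median ratio, the shift over all genes became -0.02, and relative to the mean of 20 endothelial markers it became 1.01. The last scaling adds the same amount to every gene, so that values given below relative to endothelial markers are to be read against 1.01. Of the 36 genes, 27 had a positive fold change and 9 a negative one.

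Library H3 held the highest level of 21 of the 36 genes (58.3%, against 13.1% of all tested genes) and the lowest of 8 (22.2%, against 55.7%). Without H3, the median log2 fold change was 0.20 over 29 ligands and 0.39 over the 6 receptors, and 0.01 over all genes. The number with an unadjusted p under 0.05 was then 6 of 35 (7.16% of all genes), with 5 higher and 1 lower, and again none passed the adjusted threshold (limma, smallest adjusted p = 0.407). Without H3, 4 genes were higher with no overlap (Ccl7, Ccr2 and Cxcr4 among them, against 6.46% of all genes) and 1 was lower (Cxcl5, against 2.62%). When limma's array weights set the weight of each library by its fit, H3 received 0.0643 and H4 0.178 against 1.17 to 3.85 for the others, and 2 of the 36 genes passed, among them Ccl7 (adjusted p = 0.0291), against 0.989% of all genes.

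**Figure D1:**
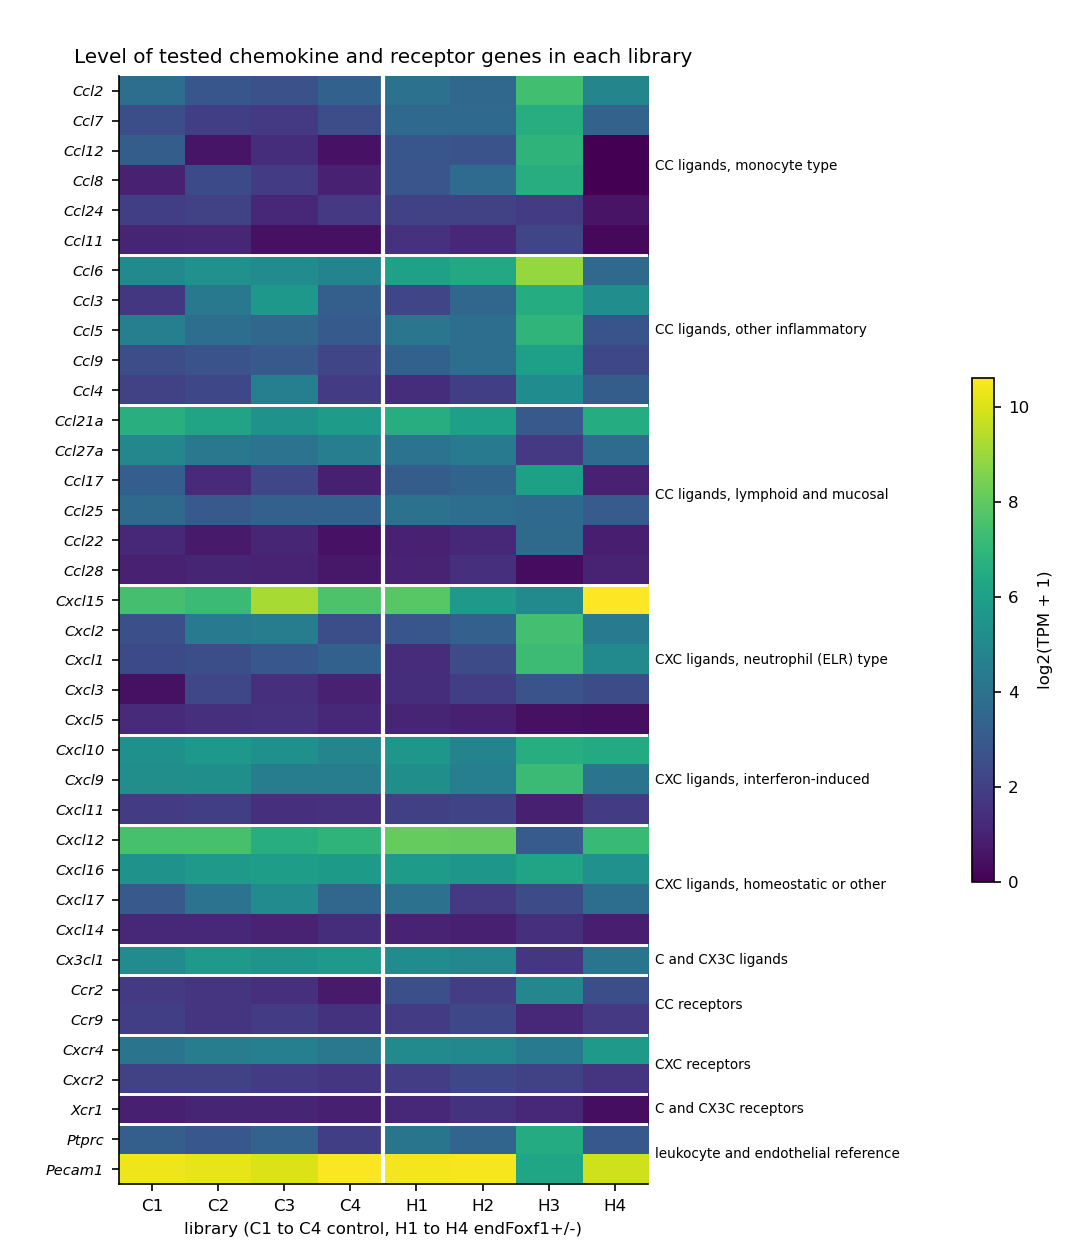
Level of 35 tested chemokine and receptor genes, with Ptprc and Pecam1, in each library, as log2(TPM + 1) on a color scale; rows are grouped by role and columns are control libraries C1 to C4 and endFoxf1+/- libraries H1 to H4. Library H3 is the brightest column for 20 of these 35 genes and the darkest for 8, while Pecam1 is at 77.5 TPM there.

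Among ligands of the monocyte type, Ccl7 showed the clearest separation. Ccl7 (chr11:82045712-82047525, GRCm38), a ligand of CCR2 that draws monocytes, was 4.79, 2.93, 2.52 and 4.67 TPM in C1 to C4 and 11.2, 11.3, 96.2 and 9.24 TPM in H1 to H4. Libraries H1, H2 and H4 lay close together above every control, and H3 lay far above them. The log2 fold change was 2.09 ± 0.66 (SE; limma, unadjusted p = 0.0111, adjusted p = 0.790), and without H3 it was 1.32 ± 0.25 (adjusted p = 0.407). Ccl2 (chr11:82035571-82037453), the main ligand of CCR2, lies just before Ccl7 and had 13.3, 6.19, 5.28 and 8.88 TPM in control and 14.7, 10.9, 166 and 27.1 TPM in endFoxf1+/- libraries. Library H2 was below C1, so the groups overlapped. Its log2 fold change was 1.78 ± 0.74 (limma, unadjusted p = 0.0382, adjusted p = 0.790) and 0.96 ± 0.38 without H3. An antisense gene model, Gm17268, overlaps Ccl2, and the library kit does not mark strand, so reads of the pair cannot be told apart.

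The neighbours of Ccl2 and Ccl7 did not share this pattern in every library. The genes Ccl2, Ccl7, Ccl11, Ccl12 and Ccl8 lie in that order within 81229 bases of chromosome 11. Ccl12, another CCR2 ligand of the mouse, was 7.77, 0.523, 1.59 and 0.431 TPM in C1 to C4, 6.17, 5.65 and 119 TPM in H1 to H3, and was listed at 0 in H4. Ccl8, a ligand of several CC receptors, was 0.972, 4.18, 2.64 and 0.939 TPM in C1 to C4, 5.92, 12.1 and 97.7 TPM in H1 to H3, and was likewise listed at 0 in H4. Both were thus highest in H3 and lowest in H4, where Ccl2 and Ccl7 were above all controls. Log2 fold changes were 1.71 ± 1.25 for Ccl12 and 1.74 ± 1.14 for Ccl8, within the spread of the libraries, and 0.45 and 0.62 without H3. Without H4, where both were listed at 0, they were 2.75 ± 1.10 and 2.83 ± 0.86, and Ccl8 was then higher without overlap (limma, adjusted p = 0.806 for each). Ccl11 (eotaxin, 0.168 to 3.65 TPM over the 8 libraries) and Ccl24 (eotaxin-2, 0.471 to 3.30 TPM), which draw eosinophils through CCR3, were low, with log2 fold changes of 0.50 and -0.13, and of 0.20 and -0.22 without H3.

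The 7 ligands grouped here as monocyte type also included Ccl26 and the eosinophil ligands Ccl11 and Ccl24. Their sum was 13.7 to 30.9 TPM in control libraries, 36.9 to 44.4 TPM in H1, H2 and H4, and 485 TPM in H3. The 12 macrophage and monocyte markers all had positive fold changes (11 of 12 without H3): 9 were above all controls in H1, 9 in H2, 11 in H3 and 4 in H4. C1qa, a complement gene of tissue macrophages, was 3.19 to 5.35 TPM in control libraries and 23.2, 22.1, 171 and 8.04 TPM in H1 to H4. Summed over the list the range was 1529 to 5152 TPM in control and 2090 to 9919 TPM in endFoxf1+/- libraries, of which Lyz2, a gene that alveolar epithelium also expresses, made up 69.3 to 96.2%. The 12 fibroblast and pericyte markers summed to 104 to 187 TPM in control libraries and 246, 170, 1351 and 330 TPM in H1 to H4, with 8 positive and 4 negative fold changes. Lum, a proteoglycan gene of fibroblasts, was 7.10, 2.45, 2.57 and 6.58 TPM in C1 to C4 and 21.4, 15.3, 183 and 39.7 TPM in H1 to H4 (log2 fold change 2.96 ± 0.70; limma, unadjusted p = 0.00202, adjusted p = 0.790), above all controls in each endFoxf1+/- library as Ccl7 was. Rgs5, which had the smallest p of the fibroblast and pericyte list, went the other way. It was 18.9, 17.9, 15.1 and 10.7 TPM in C1 to C4 and 3.71, 3.73, 0.602 and 6.66 TPM in H1 to H4. Each endFoxf1+/- library was thus below all controls. The log2 fold change of Rgs5 was -2.004 ± 0.46 (limma, unadjusted p = 0.00154, adjusted p = 0.790), and -1.56 ± 0.27 without H3. The part of either list in the Ccl2 and Ccl7 values was not tested.

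**Figure D2:**
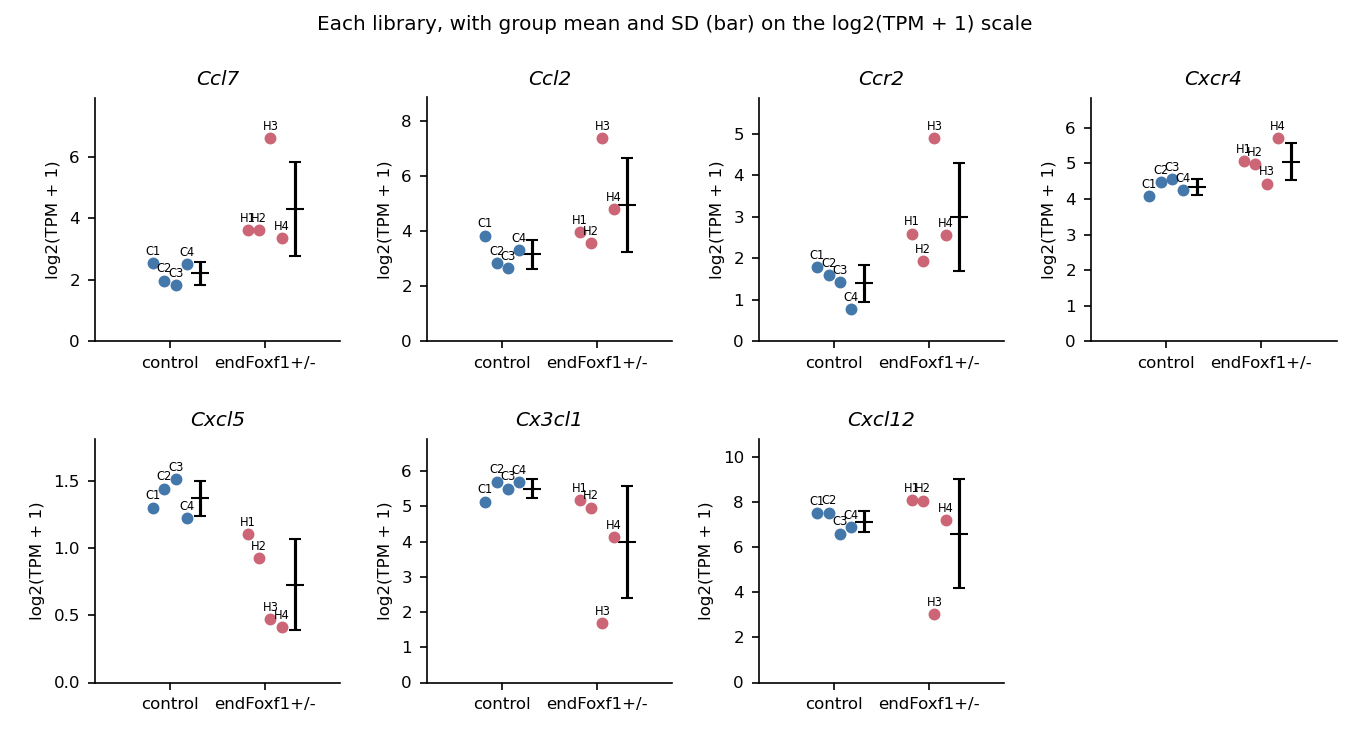
Level of Ccl7, Ccl2, Ccr2, Cxcr4, Cxcl5, Cx3cl1 and Cxcl12 in each library as log2(TPM + 1); points are single libraries, and the bar beside them gives the group mean and SD (n = 4). For Ccl7 and Ccr2 all endFoxf1+/- points lie above the controls, for Cxcl5 all lie below, and for Cxcl12 library H3 alone (7.19 TPM) lies far from the others.

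Inflammatory CC ligands of another cluster (Ccl3, Ccl4, Ccl5, Ccl6 and Ccl9, within 138906 bases of chromosome 11) were higher mainly in H3. Ccl6, a myeloid ligand of CCR1, was 32.7, 40.5, 33.8 and 26.8 TPM in C1 to C4 and 65.4, 82.6, 489 and 11.6 TPM in H1 to H4. It was the most abundant ligand of H3 and was lowest in H4, and its log2 fold change was 1.17 ± 0.88 with all libraries, 0.28 ± 0.59 without H3 and 2.04 ± 0.64 without H4. Ccl9, also made by myeloid cells, was 4.69, 5.51, 6.86 and 3.60 TPM against 8.88, 13.2, 62.3 and 3.92 TPM (log2 fold change 1.26 ± 0.67; limma, unadjusted p = 0.09005), with 0.55 ± 0.37 without H3 and 1.78 ± 0.60 without H4. Libraries H1 to H3 were above all controls for both genes, and H4 was not.

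Ccl5 (RANTES), which lymphocytes and platelets carry, was 23.0, 13.2, 10.3 and 7.03 TPM in control and 16.7, 13.2, 120 and 5.84 TPM in endFoxf1+/- libraries (log2 fold change 0.69 ± 0.78, and -0.15 ± 0.44 when H3 was left out). Ccl3 (MIP-1 alpha) varied widely within the control group, with 2.25, 18.3, 48.9 and 8.34 TPM in C1 to C4 and 3.64, 10.3, 94.8 and 36.2 TPM in H1 to H4. Ccl4 (MIP-1 beta), its neighbour, was 3.29, 3.88, 22.6 and 2.63 TPM in control and 1.60, 2.94, 34.7 and 7.77 TPM in endFoxf1+/- libraries. Both were high in C3 as well as H3, and their log2 fold changes of 0.67 and 0.21 became -0.07 and -0.54 without H3. Over these 5 ligands the median log2 fold change was 0.69, and -0.07 without H3.

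The ligands of the lymphoid and mucosal type included genes low in H3, genes high there and Ccl25, which was neither. Ccl21a, which lymphatic endothelium secretes for CCR7-bearing cells, was 101, 71.4, 43.0 and 56.8 TPM in C1 to C4 and 95.5, 62.8, 6.87 and 94.2 TPM in H1 to H4. Per 1000 TPM of Pecam1 it was 37.8 to 78.4 TPM in control and 44.9 to 103 TPM in endFoxf1+/- libraries, with overlap. Its log2 fold change was -0.51 ± 0.74, but 0.35 ± 0.29 without H3 and 0.68 ± 0.65 relative to 20 endothelial markers. Ccl21b and Ccl21c, near-identical copies of Ccl21a, reached 1 TPM in H4 alone, and the division of reads among the 3 copies is uncertain. The summed lymphatic markers were 404 to 646 TPM in control libraries and 502.3, 736, 70.0 and 529 TPM in H1 to H4.

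Ccl27a, a ligand of CCR10 best known from skin, was 29.2, 18.0, 15.4 and 22.2 TPM in control and 15.5, 20.5, 2.37 and 12.0 TPM in endFoxf1+/- libraries (log2 fold change -0.95 ± 0.53, -0.38 ± 0.26 without H3, and 0.23 ± 0.73 relative to endothelial markers). It overlaps Il11ra1, which limits the assignment of reads, and its copy Ccl27b was listed at 0 in every library. Ccl25, a ligand of CCR9 known from thymus and gut, varied little, from 6.77 to 11.8 TPM in control and 7.34 to 14.4 TPM in endFoxf1+/- libraries (log2 fold change 0.33 ± 0.28), and it overlaps Elavl1. By library it was 11.8, 6.77, 8.51 and 8.76 TPM in C1 to C4 and 14.4, 13.3, 11.5 and 7.34 TPM in H1 to H4. Ccl17 (TARC), a CCR4 ligand of dendritic cells, was 7.93, 1.50, 3.80 and 0.929 TPM in control and 7.81, 9.84, 64.8 and 0.989 TPM in endFoxf1+/- libraries (log2 fold change 1.48 ± 0.94, 0.60 ± 0.71 without H3 and 2.28 ± 0.80 without H4). Ccl22, the other CCR4 ligand, was 0.438 to 1.34 TPM everywhere except in H3, where it was 11.8 TPM. Ccl28, a ligand of mucosal surfaces, was 0.291 to 1.75 TPM.

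CXC ligands that carry the ELR motif and draw neutrophils through CXCR2 lie in a cluster on chromosome 5, of which Cxcl5 to Cxcl2 span 146579 bases. Cxcl1 (chr5:90891241-90893115), Cxcl2 (chr5:90903871-90905938) and Cxcl3 (chr5:90786103-90789600) are inducible ligands known to be controlled by NF-kappaB, and they are shown here because these members of the cluster were all highest in H3 and share 1 stretch of letters before their start. In the RefSeq promoter windows (250 bases before to 50 after the gene start, GRCm38.p6), the kappaB motif (GGGA, any 2 bases, then TTCC), searched on both strands, was found in 6 of 41 chemokine and receptor genes that had a window, against 1.47% of 32851 windows. The genes were Ccl1, Ccr3, Cxcl1, Cxcl2, Cxcl3 and Cxcl10. A gene was counted if any of its windows matched, so the shares of genes and of windows are not directly comparable. The matches, in capitals, lie 71 bases upstream of the RefSeq start, which differs from the GENCODE start given above, in Cxcl1, 97 in Cxcl2, 73 in Cxcl3 and 159 in Cxcl10, and in the first 3 the motif matches on both strands at positions shifted by 1 base. The stretches are chr5:90891149-90891208 (+) for Cxcl1, chr5:90903777-90903836 (+) for Cxcl2, chr5:90786003-90786062 (+) for Cxcl3 and chr5:92349014-92349073 (-) for Cxcl10, each 5′ to 3′ on the gene's strand.
Cxcl1: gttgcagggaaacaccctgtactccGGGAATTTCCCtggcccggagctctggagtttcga
Cxcl2: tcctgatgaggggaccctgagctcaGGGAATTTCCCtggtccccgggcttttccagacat
Cxcl3: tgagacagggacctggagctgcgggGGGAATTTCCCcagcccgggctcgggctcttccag
Cxcl10: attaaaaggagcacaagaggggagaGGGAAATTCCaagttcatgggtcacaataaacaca
A match describes letters only and is not a measured binding site. The forkhead core TAAACA, searched in the same way, was in 7 of the 41 genes against 13.4% of windows, among them Cxcl10 and Cxcl15. The same limit applies to these shares of genes and windows.

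The levels of these ligands were as follows. Cxcl1 (KC) was 4.19, 4.81, 6.29 and 8.72 TPM in C1 to C4 and 1.52, 4.31, 154 and 32.9 TPM in H1 to H4. Cxcl2 (MIP-2) was 5.08, 20.1, 21.4 and 4.78 TPM in control and 6.21, 8.61, 172 and 20.2 TPM in endFoxf1+/- libraries. Cxcl1 was above all controls in H3 and H4 but below all of them in H1, and Cxcl2 was above them in H3 only. The log2 fold changes were 1.26 ± 1.10 for Cxcl1 and 0.98 ± 0.95 for Cxcl2, and 0.18 and 0.00 without H3. Cxcl3 was 0.386 to 3.79 TPM in control and 1.64 to 5.56 TPM in endFoxf1+/- libraries. Of the 6 detected neutrophil markers 5 were highest in H3, with 8.36 to 78.3 TPM summed in control libraries and 461 TPM in H3, and Ly6g, a defining marker, was listed at 0 throughout.

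Cxcl5 (chr5:90759360-90761624, LIX), of the same cluster, went the other way. It was 1.46, 1.72, 1.85 and 1.33 TPM in C1 to C4 and 1.15, 0.895, 0.388 and 0.329 TPM in H1 to H4, below every control in each, a separation that was lost with quantile normalization and relative to endothelial markers. The log2 fold change was -0.64 ± 0.27 (limma, unadjusted p = 0.0379, adjusted p = 0.790) and -0.56 ± 0.25 without H3, and it was 0.54 relative to the 20 endothelial markers, below the median of 1.01 over all genes on that scale. Levels near 1 TPM make the fold change on this scale small.

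Cxcl15 (lungkine), a ligand made by lung epithelium, was the most abundant of the 39 ligands in 3 libraries. It was 176, 151, 597 and 198 TPM in C1 to C4 and 232, 52.1, 32.3 and 1558 TPM in H1 to H4, which is 52.5% of all ligand TPM in C3 and 72.0% in H4. The 11 epithelial markers, of which Sftpc (surfactant protein C) held 69.2 to 86.2%, summed to 10605, 6957, 32725 and 9051 TPM in C1 to C4 and 10963, 2605, 1632 and 26999 TPM in H1 to H4. The same libraries, C3 and H4, were the 2 highest in both, and H2 and H3 were the 2 lowest. Cxcl17, another mucosal ligand, was 6.69, 15.3, 33.6 and 10.4 TPM in control and 14.3, 2.49, 4.33 and 13.2 TPM in endFoxf1+/- libraries. Log2 fold changes of -0.58 ± 1.07 (Cxcl15) and -0.91 ± 0.59 (Cxcl17) were within the spread, without H3 they were 0.17 ± 1.02 and -0.71 ± 0.64, without H4 -1.68 ± 0.73 and -1.18 ± 0.64, and relative to endothelial markers the values were 0.60 and 0.28, also below 1.01.

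**Figure D3:**
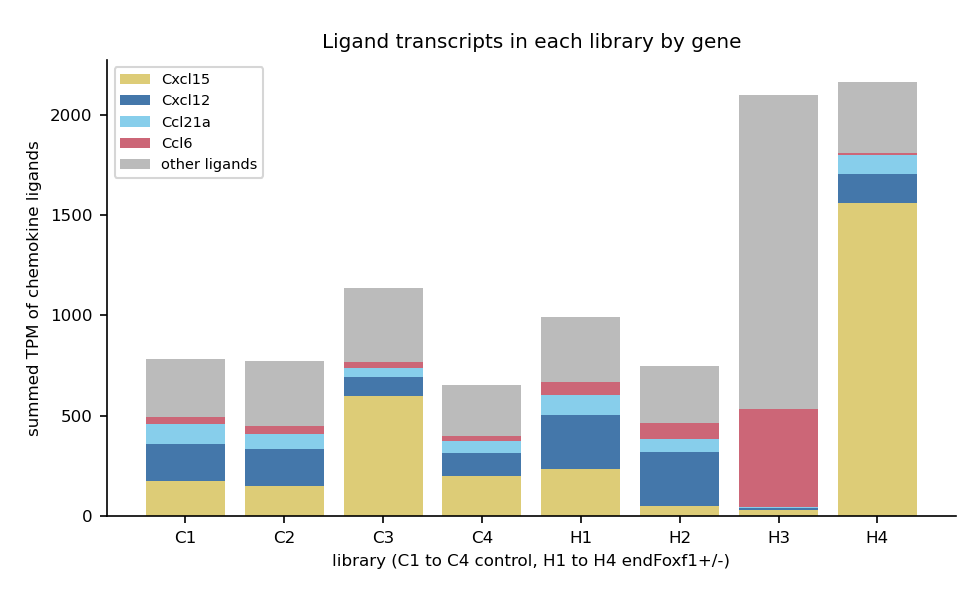
Summed TPM of the 39 chemokine ligands in each library, stacked by gene for Cxcl15, Cxcl12, Ccl21a and Ccl6 with the other ligands in gray. The sums of H3 (2101 TPM) and H4 (2166 TPM) are similar in height, but Cxcl15 makes up 72.0% of H4 while Ccl6 and the other ligands fill the bar of H3.

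The sum of all ligands was 655 to 1137 TPM in control libraries and 990, 748, 2101 and 2166 TPM in H1 to H4. Without Cxcl15 it was 457 to 623 TPM in control libraries, 607 to 758 TPM in H1, H2 and H4, and 2069 TPM in H3. The order of the leading ligands differed by library: Cxcl12 was first in C1, C2, H1 and H2, Cxcl15 in C3, C4 and H4, and Ccl6 in H3.

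The interferon-induced ligands of CXCR3, Cxcl9, Cxcl10 and Cxcl11, which draw activated T cells, lie within 44139 bases of chromosome 5. Cxcl9 was 36.4, 38.3, 21.1 and 20.9 TPM in C1 to C4 and 37.5, 22.8, 151 and 16.1 TPM in H1 to H4. Cxcl10 was 39.6, 48.9, 38.8 and 27.5 TPM in control and 47.8, 25.8, 95.8 and 87.3 TPM in endFoxf1+/- libraries. Both were highest in H3, but H4 held high Cxcl10 and the lowest Cxcl9. Cxcl11, which the annotation lists as a polymorphic pseudogene, was 0.927 to 3.52 TPM and lowest in H3. Log2 fold changes were 0.43 ± 0.61, 0.57 ± 0.41 and 0.05 ± 0.33, and without H3 they were -0.22 ± 0.33, 0.32 ± 0.38 and 0.32 ± 0.23. The 14 interferon response genes examined all had negative fold changes (median -0.84), 4 of them at an unadjusted p under 0.05, and all 14 were below every control library in H3. Without H3, 12 were negative and 2 positive (median -0.39), 1 of the negative ones at an unadjusted p under 0.05.

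The endothelial ligands Cxcl12 and Cx3cl1 were low in H3 together with the endothelial markers. Cxcl12 (chr6:117168535-117181367, SDF-1), the ligand of CXCR4 that retains and recruits progenitor cells and leukocytes, was 184, 184, 96.1 and 117 TPM in C1 to C4 and 274, 268, 7.19 and 146 TPM in H1 to H4. H1 and H2 were above every control, H4 was within their range and H3 was far below. The log2 fold change of -0.54 ± 0.995 (limma, adjusted p = 0.880) became 0.65 ± 0.31 (adjusted p = 0.711) without H3 and 0.65 ± 0.62 relative to endothelial markers. Per 1000 TPM of Pecam1, Cxcl12 was 116 ± 37.5 TPM in control and 161 ± 48.9 TPM in endFoxf1+/- libraries (SD, n = 4 each), with H3 at 92.8 TPM inside the control range of 78.0 to 154 TPM.

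Cx3cl1 (chr8:94772009-94782427, fractalkine), a membrane-bound ligand that holds CX3CR1-bearing monocytes and lymphocytes on endothelium, was 34.0, 50.9, 44.3 and 50.3 TPM in control and 35.0, 30.2, 2.23 and 16.5 TPM in endFoxf1+/- libraries. H1 lay just above C1, and H2, H3 and H4 lay below all controls. The log2 fold change was -1.51 ± 0.67 (limma, unadjusted p = 0.0487, adjusted p = 0.790) and -0.75 ± 0.27 without H3 (unadjusted p = 0.0239). Per 1000 TPM of Pecam1 it was 36.0 ± 7.59 TPM in control and 23.5 ± 4.67 TPM in endFoxf1+/- libraries, and by library 26.4, 42.4, 41.8 and 33.4 TPM against 25.7, 21.6, 28.8 and 18.1 TPM. On this ratio H3 was the highest endFoxf1+/- library, and H1, H2 and H4 lay below every control. Relative to the 20 endothelial markers the log2 fold change of Cx3cl1 was -0.33 ± 0.66 (limma, unadjusted p = 0.626).

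The remaining CXC ligands varied little. Cxcl16, which is shed from the surface and attracts CXCR6-bearing T cells, was 42.9, 50.8, 60.02 and 54.2 TPM in C1 to C4 and 55.9, 48.1, 73.2 and 39.7 TPM in H1 to H4 (log2 fold change 0.04 ± 0.24, which was -0.12 without H3 and -0.05 without C1). Unlike Cxcl12 and Cx3cl1, its level in H3 was the highest of all libraries. Cxcl14, an orphan chemokine of epithelium, was 0.856 to 1.71 TPM.

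Among receptors, Ccr2 (chr9:124101950-124113557), the receptor of Ccl2 and Ccl7 on inflammatory monocytes, was 2.45, 2.002, 1.70 and 0.703 TPM in control and 5.02, 2.81, 28.8 and 4.91 TPM in endFoxf1+/- libraries. The log2 fold change was 1.60 ± 0.59 (limma, unadjusted p = 0.0229, adjusted p = 0.790) and 0.97 ± 0.31 without H3 (adjusted p = 0.603). Ccr2 per TPM of Ptprc was much the same in H3 (0.315 TPM) as in the control libraries (0.186 to 0.312 TPM) and in H1 and H2 (0.304 and 0.283 TPM), and it was 0.742 TPM in H4. The part of leukocyte RNA in the Ccr2 values was not tested.

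Cxcr4 (chr1:128588199-128592293), the receptor of Cxcl12, which leukocytes and sprouting tip cells of endothelium express, was 15.9, 21.3, 22.7 and 18.0 TPM in C1 to C4 and 32.6, 30.4, 20.6 and 51.4 TPM in H1 to H4. H1, H2 and H4 were above every control, and H3 was within their range. Its log2 fold change was 0.70 ± 0.29 (limma, unadjusted p = 0.0377, adjusted p = 0.790) and 0.91 ± 0.22 (unadjusted p = 0.00359, adjusted p = 0.501) without H3. Cxcr4 showed little relation to Ptprc (r = -0.03, rho = 0.238; exact permutation, unadjusted p = 0.943 and 0.582 over 8 libraries, and r = 0.08 over 6). Cxcr2, the neutrophil receptor of the ELR ligands, was 2.05 to 3.87 TPM, Ccr9 was 1.24 to 3.98 TPM, and Xcr1, of cross-presenting dendritic cells, was 0.329 to 1.92 TPM, with log2 fold changes of 0.06, 0.02 and 0.06, and of 0.02, 0.22 and 0.04 without H3. Ccr9 overlaps several other genes in the annotation, so its reads are uncertain.

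**Figure D4:**
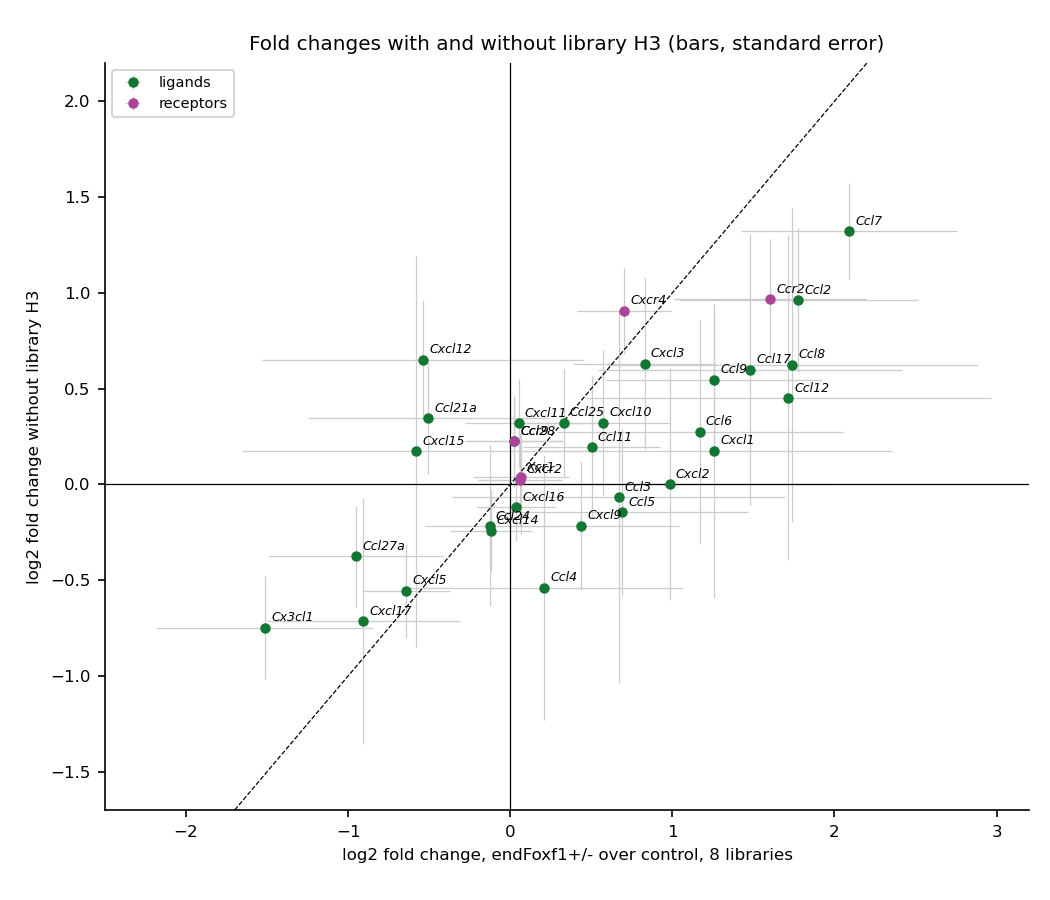
Log2 fold change (endFoxf1+/- over control, log2(TPM + 1) scale) of 34 tested genes with all 8 libraries (x axis) and without library H3 (y axis), with standard errors as bars and the line of equal values dashed. Ligands such as Cxcl2 (0.98 to 0.00) and Ccl12 (1.71 to 0.45) move toward 0, Cxcl12 (-0.54 to 0.65) crosses it, and the receptor Cxcr4 (0.70 to 0.91) stays near the line.

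Genes that follow leukocyte transcripts were separated by their Pearson correlation with Ptprc on the log2(TPM + 1) scale. Over the 8 libraries, 14 of the 36 genes had r of at least 0.7, among them Ccl2, Ccl5, Ccl6, Ccl7, Ccl8, Ccl9, Ccl11, Ccl12, Ccl17, Ccl22, Cxcl2, Cxcl9 and Ccr2. Their r ran from 0.775 (Cxcl2) to 0.946 (Ccl9) and their rho from 0.452 (Cxcl2) to 0.905 (Ccl9), with unadjusted p of r from 0.00124 (Ccl17) to 0.0585 (Cxcl2) by exact permutation. When C4 and H3, the 2 libraries farthest from the median of Ptprc, were left out, Ccl17 alone kept r of at least 0.7 (1.54% of all tested genes did so), and for the other 13 (6.68% of all tested genes) the relation with Ptprc did not hold at that level without those libraries. With the mean of 12 leukocyte markers in place of Ptprc 5 genes kept r of at least 0.7 over 8 libraries and over the same 6 (2.19% of all tested genes), among them Ccl9 (r = 0.984 and 0.966), Ccl8 (0.935 and 0.941), Ccl6 (0.935 and 0.923) and Ccl11 (0.853 and 0.734), while Ccl17 had 0.915 and 0.698. Over 8 libraries rho was 0.976 for Ccl6, Ccl8 and Ccl9 and 0.857 for Ccl11 (exact permutation, unadjusted p = 0.000397 and 0.0107), and the adjusted p of r for these 4 genes was 0.124 to 0.244 (exact permutation, unadjusted p from 7.44e-05 to 0.00387). Ccl17 had r = 0.925 and Spearman's rho = 0.857 over 8 libraries (exact permutation, unadjusted p = 0.00124 and 0.0107, adjusted p = 0.266 and 0.706 over 14963 genes) and r = 0.706 over 6. Ccl9 had r = 0.946 and rho = 0.905 (exact permutation, unadjusted p = 0.00325 and 0.00456) and r = 0.641 over 6. None of the 36 had an adjusted p under 0.05 for r; the smallest was 0.266 (exact permutation). Within the 13 genes the r over 6 libraries still varied, from 0.681 for Ccl12 and 0.644 for Ccl6, through 0.492 for Ccl7 and 0.395 for Ccr2, to 0.057 for Ccl2 and -0.604 for Cxcl2.

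The opposite pattern, r of -0.7 or less over 8 libraries, was found for 4 genes, Ccl21a, Ccl27a, Cx3cl1 and Cxcl12, against 26.4% of all tested genes (r from -0.757 to -0.867; exact permutation, unadjusted p from 0.0375 to 0.116), and over 6 libraries these had r from -0.01 to 0.51. The remaining 18 genes met neither limit over 8 libraries, although Ccl25 reached r = 0.825 over 6. Their median log2 fold change was 0.06, against 1.17 for the 13 genes that followed Ptprc over 8 libraries only and -0.74 for the 4 that ran opposite to it. Without H3 these medians were 0.10, 0.50 and -0.01. Ptprc itself had a log2 fold change of 1.41 ± 0.71 (limma, adjusted p = 0.790) and 0.65 ± 0.40 without H3. The classes were sorted by their relation to Ptprc over the same libraries. The order of the class medians therefore largely follows from the sorting and is no separate result.

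**Figure D5:**
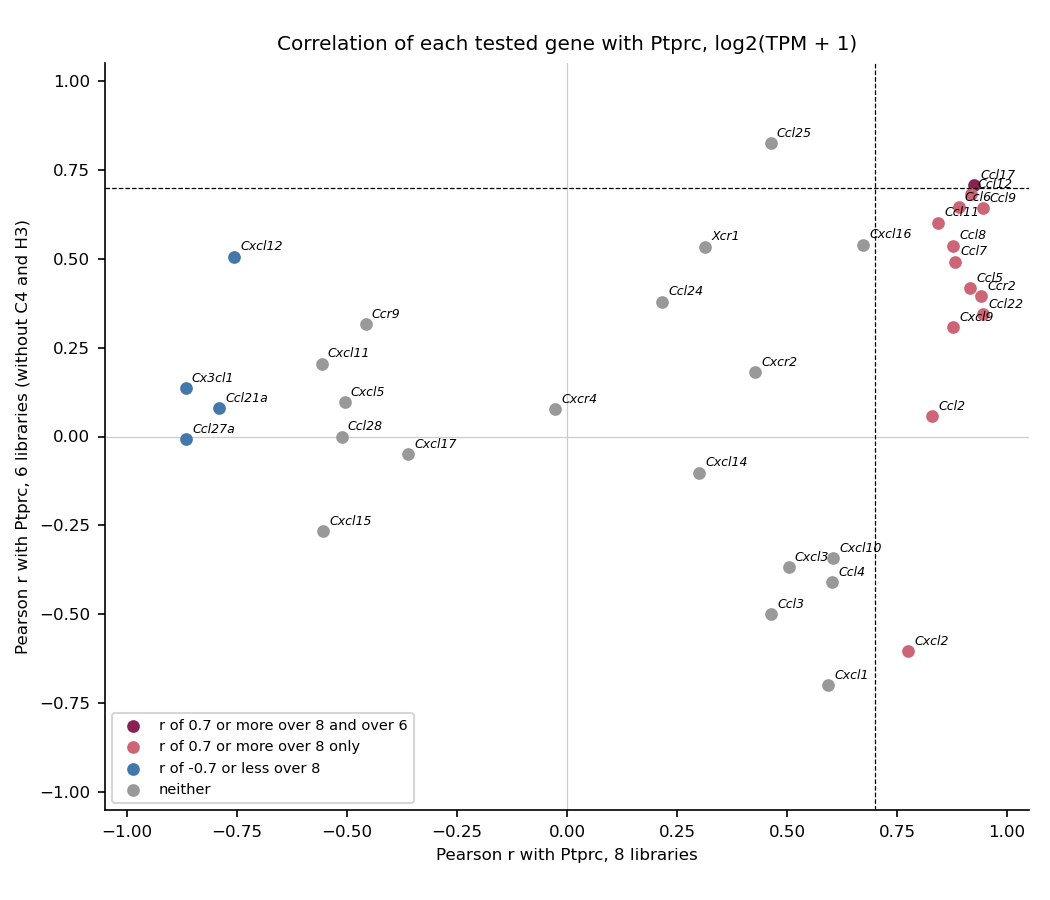
Pearson correlation of 35 tested genes with Ptprc on the log2(TPM + 1) scale over 8 libraries (x axis) and over 6 libraries without C4 and H3 (y axis), colored by class, with dashed lines at 0.7. The 13 genes to the right of the vertical line spread from -0.604 (Cxcl2) to 0.706 (Ccl17) on the y axis.

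Levels per TPM of Ptprc differed among the genes of this class. Ccl9 kept 0.538 to 1.33 TPM per TPM of Ptprc in all 8 libraries, with 0.684 TPM in H3. Ccl5 was 1.13 to 2.80 TPM in control and 0.884 to 1.32 TPM in endFoxf1+/- libraries, and Cxcl9 was 2.32 to 7.12 TPM in control and 1.65 to 2.44 TPM in endFoxf1+/- libraries, a slight overlap in each. Cxcl1, which met neither limit, ranged from 0.0921 TPM in H1 to 4.98 TPM in H4.

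The other 21 members did not reach the limit for testing, and 16 of them reached 1 TPM in some library. Of these, 11 were highest in H3: Xcl1, the ligand of Xcr1 (13.8 TPM), Ccr1 (14.9 TPM), the lymph node homing receptor Ccr7 (12.5 TPM), the fractalkine receptor Cx3cr1 (6.02 TPM), the B cell attractant Cxcl13 (2.60 TPM), Cxcr3, the receptor of Cxcl9 to Cxcl11 (2.41 TPM), Cxcr5 (1.62 TPM), Cxcr6 (1.60 TPM), Ccr6 (1.15 TPM), Ccr8 (1.14 TPM) and Cxcr1 (1.11 TPM). Ccl20 (2.91 TPM), Ccl21b (1.29 TPM) and Ccl21c (3.12 TPM) were highest in H4, Ccl19 (1.36 TPM) in C3 and Ccr4 (1.03 TPM) in H2. Cxcl13, Cxcr1, Cxcr3, Cxcr5, Ccr6 and Ccr8 reached 1 TPM in H3 alone, so the rule for naming them fixed their highest library. The share over all untested genes was not computed, and the count of 11 is not read as a result. Ccr1 was above all controls (0.334 to 0.898 TPM) in every endFoxf1+/- library, at 0.993, 2.03, 14.9 and 2.02 TPM in H1 to H4. Cx3cr1 was 0.394 to 0.948 TPM in control libraries and 1.09, 1.90, 6.02 and 0.466 TPM in H1 to H4, highest in the library where its ligand Cx3cl1 was lowest, and its annotated span overlaps several other genes. The remaining 5, Ccl1, Ccl26, Ccl27b, Ccr3 and Ccr10, stayed below 1 TPM, and Ccl26 and Ccl27b were listed at 0 in all libraries.

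Pf4 (CXCL4) and Ppbp (CXCL7), chemokines of platelet granules under other names, lie beside Cxcl5 and Cxcl3 and were more abundant than most members. Pf4 was 256, 475, 375 and 417 TPM in C1 to C4 and 196, 181, 247 and 290 TPM in H1 to H4 (log2 fold change -0.72 ± 0.27; limma, unadjusted p = 0.0260, adjusted p = 0.790). Ppbp was 354, 838, 714 and 536 TPM in control and 281, 206, 73.7 and 456 TPM in endFoxf1+/- libraries (-1.46 ± 0.53, unadjusted p = 0.0210, and -0.96 ± 0.35 without H3). In each gene H4 was above C1 and the other endFoxf1+/- libraries were below every control. Each of the 6 platelet markers examined, which include both, was lower at an unadjusted p under 0.05 (limma), as were 414 of all 14964 tested genes. The list summed to 756 to 1613 TPM in control and 344 to 864 TPM in endFoxf1+/- libraries and was not tested as a whole. None passed the adjusted threshold.

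Of 7 atypical and related receptors, all tested, 2 had positive and 5 negative fold changes (median -0.66), none at an unadjusted p under 0.05, and without H3 4 were positive and 3 negative (median 0.08). Ackr1 (DARC), which venous endothelium uses to carry chemokines across the wall, was 6.43, 4.35, 2.66 and 4.42 TPM in C1 to C4 and 16.7, 18.0, 1.03 and 3.11 TPM in H1 to H4. Per 1000 TPM of Pecam1 it was 2.50 to 4.99 TPM in control libraries and 12.2, 12.8, 13.4 and 3.40 TPM in H1 to H4, so that H4 stood apart from H1 to H3 on this ratio. Ackr2 (D6), a scavenger of inflammatory CC ligands, was 86.6 to 124 TPM in control and 131, 117, 4.50 and 85.7 TPM in endFoxf1+/- libraries. Ackr3 (CXCR7), the second receptor of Cxcl12, was 52.1 to 92.7 TPM in control and 98.0, 74.7, 9.11 and 66.5 TPM in endFoxf1+/- libraries. Ackr4, a scavenger of Ccl19, Ccl21 and Ccl25, was 6.65 to 13.4 TPM in control and 7.72, 10.7, 0.694 and 2.09 TPM in endFoxf1+/- libraries (log2 fold change -1.18 ± 0.58; limma, unadjusted p = 0.0727, and -0.67 ± 0.46 without H3). Gpr182, another endothelial scavenger, was 43.7 to 72.5 TPM in control and 48.6, 62.9, 2.71 and 22.4 TPM in endFoxf1+/- libraries.

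Among 22 genes of chemokine receptor signaling, 10 had positive and 12 negative fold changes, with 3 higher and 1 lower at an unadjusted p under 0.05, and without H3 13 were positive and 9 negative. The smallest p were those of Pik3cg (0.0221) and Rac2 (0.0255), leukocyte forms of kinase and GTPase that act below chemokine receptors, with log2 fold changes of 1.19 and 1.29, and of 0.80 and 0.77 without H3. Of 12 tested genes that cleave or present ligands, 9 were positive and 3 negative, and Mmp14, a membrane protease, was 14.7 to 19.2 TPM in control and 30.7, 28.3, 84.1 and 42.1 TPM in endFoxf1+/- libraries, without overlap (log2 fold change 1.24 ± 0.34; limma, unadjusted p = 0.00497, adjusted p = 0.790, and 0.91 ± 0.19 without H3). Of 14 genes that respond to or form NF-kappaB, 4 were positive and 10 negative, with 1 on each side at an unadjusted p under 0.05: Tnfaip3, a feedback inhibitor (0.62 ± 0.26, and 0.51 ± 0.23 without H3), and Rela, a subunit (-0.70 ± 0.29, and -0.43 ± 0.15 without H3). Without H3, 6 of the 13 still tested were positive and 7 negative. No gene of these lists passed the adjusted threshold.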

How the data were processed

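Per the labels, total RNA of FACS-sorted CD45-CD31+ cells was made into Nextera XT libraries, which do not mark strand. The authors deposited 1 table of TPM per library. The submitters' processing notes name TopHat, Cufflinks, Subread, DESeq2 and GRCm38 (mm10), and the tool that gave the TPM is not given in the sources used here. TPM keep no read numbers, so depth and counting error are unknown and count models were not used. Values were tested as log2(TPM + 1) for the 14964 genes with at least 1 TPM in at least 4 libraries, with limma 3.58.1 in R 4.3.3 (trended empirical Bayes, two-sided, Benjamini-Hochberg over all tested genes, threshold 0.05). Correlations with Ptprc were computed in Python 3.11.15 (numpy 2.4.6) with exact permutation over all pairings. Tested chemokine and receptor genes were named, with each library given where the mean was at least 5 TPM or the groups did not overlap, and others by range. Untested ones were named where a library reached 1 TPM. In other lists, the genes with the smallest p were named, and further genes, such as the atypical receptors, were chosen after their values were seen. The genes and lists were chosen with earlier results of these data known. Some genes are counted but not reported here. Code was tested on simulated data. Alternatives were other pseudocounts, filters, scalings, array weights and libraries left out. Gene positions are from GENCODE vM21 (GRCm38), which located 56 of the 57 genes, and promoter sequences from RefSeq (GRCm38.p6).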

Additional observations from a re-analysis of the deposited data

Results flagged for a closer look

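In 5 of 72 sets of 4 libraries (36 genes in 2 groups), 1 library stood apart from the other 3 by Dixon's test, which chance does in about 1 of 20 sets. In endFoxf1+/- TECs, H3 stood apart for Ccl7 (96.2 TPM), Ccl22 (11.8 TPM) and Ccl21a (6.87 TPM), the first 2 high and the last low, and H4 stood apart for Ccl24 (0.471 TPM, low). In control TECs, C3 stood apart for Ccl4 (22.6 TPM, high). H3 had the lowest level of all 20 endothelial markers and the highest of 11 of 12 leukocyte markers. The part of these in the values was not tested.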

How the results depend on the processing

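Of 26 genes given in every library, 12 kept their direction in every alternative run for them (18 for 22 genes, and 17 for 4 genes that did not reach the minimum of 5 TPM), and 15 when the alternative that adds a constant to every gene is set aside. The call count of 0 among chemokine and receptor genes became 2 with array weights (among them Ccl7, log2 fold change 1.47), and that among other genes of the axis became 3 (Ackr1, Mmp14 and Pf4, named after their values were seen, in an alternative added after seeing the data). The 4 genes without overlap became 2 with a minimum of 5 TPM, 13 without H3 and H4 (24.5% of all genes), and 4 to 9 with 1 library left out, the 9 without H4 (9.29% of all genes). The receptor median of 0.38 became 0.71 with a minimum of 5 TPM, which left 2 receptors. It was 0.61 with quantile normalization, 0.55 with median ratio scaling and 0.51 without H3 and H4. The median over all genes was -0.17 in the main fit. That median became -0.01 with quantile normalization, -0.02 with median ratio scaling and 0.14 without H3 and H4. The ligand median of 0.47 ran from 0.18 with array weights (0.13 over all genes) to 0.63 with quantile normalization, and was 0.20 without H3, 0.26 without H3 and H4 and 0.30 with a pseudocount of 5. The count following Ptprc, 1, became 0 with a pseudocount of 5, 3 with no filter, 8 at r of 0.5, 0 at r of 0.9, 5 with the leukocyte list (its permutation p, the count of 15 above and the values of other gene lists without H3 were added after seeing the data), and 2 to 4 with 1 library left out, whichever library it was.

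Directions reversed with array weights for Ccl21a (0.37), Ccl3 (-1.16), Ccl4 (-0.96), Cxcl1 (-0.96), Cxcl12 (0.85) and Cxcl2 (-0.57). Without H3 and H4 they reversed for Ccl21a (0.25), Ccl3 (-0.85), Ccl4 (-1.02), Cxcl1 (-0.89), Cxcl10 (-0.11), Cxcl12 (0.95) and Cxcl2 (-0.45). Relative to endothelial markers, a scaling that adds 1.18 to every fold change and moves the median of all genes to 1.01, the sign changed for Ccl21a (0.68), Ccl27a (0.23), Cxcl12 (0.65), Cxcl15 (0.60), Cxcl17 (0.28) and Cxcl5 (0.54), all still below that median. With 1 library left out, the ranges that included a reversal were -0.86 to 0.35 for Ccl21a, -0.067 to 1.39 for Ccl3, -0.54 to 0.83 for Ccl4, -0.15 to 1.24 for Ccl5, -1.04 to 0.65 for Cxcl12, -1.68 to 0.17 for Cxcl15 -0.12 to 0.17 for Cxcl16 and -0.22 to 0.83 for Cxcl9. Without H3 they reversed for Ccl21a (0.35), Ccl3 (-0.067), Ccl4 (-0.54), Ccl5 (-0.15), Cxcl12 (0.65), Cxcl15 (0.17), Cxcl16 (-0.12) and Cxcl9 (-0.22), without C1 for Ccl3 (-0.002) and Cxcl16 (-0.05), and without C4 for Ccl4 (-0.07). The causes were not tested. No paired analysis was possible because the labels give no replicate numbers, and the numbers 1 to 4 used here only name the libraries of a group in order of accession. The TPM give no depth, so differences among genes near 1 TPM could not be set against counting error.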
